A study of Eublepharis macularius with 4 samples.

Results

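Endothelial cells made up 122 of the 8531 cells recovered from adult leopard gecko jaw tissue in 4 single-cell RNA libraries. A cell was counted as endothelial when it had at least 200 detected genes, 3 or more summed molecules of PLVAP, VWF, EMCN and EGFL7 with at least 2 of these 4 genes detected, and fewer than 10 molecules of LOC129339097, a locus known only by its number. A molecule here is 1 unique molecular identifier (UMI), the tag that marks a captured transcript before amplification. The other 8409 cells with at least 200 genes were the comparison. The 4 genes that chose the cells, and LOC129339097, are described below without a test.

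The tissue was the soft part of jaws from adult leopard geckos (Eublepharis macularius), lizards that replace their teeth throughout life, and it held oral mucosa, dental lamina and dental mesenchyme. Tissue of animal LG252 was digested with collagenase D (1.5 U/ml) and dispase II (2.4 U/ml) at 37 °C for 4 to 5 hours. Tissue of animal LG255 was digested with a bacterial protease (10 mg/ml) at 4 °C for 6 hours. In both, cells that excluded propidium iodide were sorted as live and loaded for 10x Genomics 3′ libraries, 2 per animal. No genotype or treatment other than the digestion is given. The labels call the 2 libraries of an animal biological replicates without saying what separates them, so the spread behind the p-values may be technical. Against other cells that spread was pooled over all genes, so those p-values do not measure a gene's own spread between libraries. Animal and digestion changed together and cannot be told apart.

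Endothelial cells line every blood and lymphatic vessel. They hold the vessel wall closed through junction proteins, answer growth signals of the VEGF and angiopoietin families through receptor tyrosine kinases, and let leukocytes leave the blood through selectins and adhesion molecules. Arterial, venous, capillary and lymphatic endothelium share a core programme set by ETS-family transcription factors and differ in further genes, such as the Notch ligand DLL4 in arteries, NR2F2 in veins and PROX1 in lymphatics. These roles are known from mammals, birds and fish.

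The libraries held 723 to 4345 cells each. The median endothelial cell had 3044 and 4196 UMIs in LG252 and 4021 and 1490 UMIs in LG255, against 3191 and 4491.5 in other cells of LG252 and 5300.5 and 7798 in other cells of LG255. The endothelial cells of LG255 replicate 2 were therefore the shallowest, and their summed depth was 26711 UMIs against 86486 to 316563 in the other libraries. Of 8582 distinct cell barcodes, 30 occurred in more than 1 library.

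The share of endothelial cells was 0.575% in LG252 replicate 1 (25 of 4345 cells, exact 95% binomial interval 0.373 to 0.848%) and 2.95% in LG252 replicate 2 (65 of 2207, 2.28 to 3.74%). In LG255 it was 2.63% in replicate 1 (19 of 723, 1.59 to 4.07%) and 1.04% in replicate 2 (13 of 1256, 0.552 to 1.76%). The intervals cover counting error only. The 2 libraries of LG252 lay on either side of both libraries of LG255. The means were 1.76 ± 1.68% in LG252 and 1.83 ± 1.13% in LG255 (SD, n = 2 each), a difference of -0.0712 percentage points (two-sided exact permutation test, p = 1, the smallest possible p being 0.333). The spread within an animal was larger than the difference between the animals, and the share after dissociation and sorting need not be the share in the jaw.

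**Figure D1:**
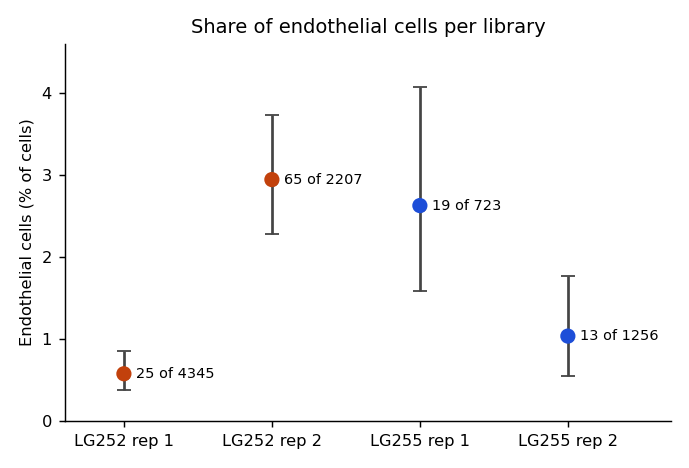
Endothelial cells as a percentage of all cells with at least 200 genes, for each library, with exact 95% binomial intervals and the counts behind each point (LG252 orange, LG255 blue). The highest and the lowest share, 2.95% and 0.575%, both belong to LG252.

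Most endothelial cells cleared the rule by a wide margin. All 4 genes were detected in 67 cells, 3 in 38 and 2 in 17. Just inside the threshold, 4 cells had 3 summed UMIs, 2 had 4 and 26 had 5 to 9, while 90 had 10 or more. Just outside it, 6 cells had 2 UMIs of 2 genes and 6 had 3 or more UMIs of a single gene. A UMI of CDH5, PECAM1, ESAM, AQP1 or CD34 was found in 1 of the 4 cells with 3 UMIs, all from LG252 replicate 2. It was found in both cells with 4, in 23 of the 26 with 5 to 9 and in 88 of the 90 with 10 or more. Among the cells just outside, 2 of the 6 with 2 UMIs and 4 of the 6 with a single gene had such a UMI. The limit on LOC129339097 removed 5 further cells, 4 from LG252 replicate 2 and 1 from LG255 replicate 2. These 5 carried endothelial transcripts, with 81 UMIs of CLDN5, 52 of AQP1 and 14 of CD34, and stand among the other cells, whose AQP1 came to 142 UMIs in all.

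Levels below are UMIs summed over the cells of a class in a library, scaled to 1000000 UMIs of that class (CPM), and 4 values always stand in the order LG252 replicates 1 and 2, then LG255 replicates 1 and 2. PLVAP, the protein of the diaphragms that span endothelial pores and caveolae, had 1390, 1677, 2683 and 2508 CPM in endothelial cells, against 0.339, 3.75, 0.452 and 0.511 CPM in other cells. VWF, the clotting protein stored in endothelial granules, had 542, 727, 4243 and 4904 CPM in endothelial cells. The 2 LG255 libraries were far above the 2 LG252 libraries for VWF, and the other cells had 0.614 to 3.11 CPM. EMCN, a surface sialomucin, had 611, 989, 879 and 1273 CPM in endothelial cells, against 0 to 4.94 CPM in other cells. EGFL7, a secreted protein of the vessel wall, had 611, 594, 1503 and 1797 CPM in endothelial cells, against 0.388 to 3.67 CPM in other cells, and was again higher in both LG255 libraries. These differences follow from the rule. In the MPM_Emac_v1.0 assembly PLVAP lies on chromosome 5 (3204233 to 3216899), VWF on chromosome 16 (11134189 to 11349132), EMCN on chromosome 10 (27217179 to 27274651) and EGFL7 on chromosome 14 (68855778 to 68889638), so no pair of them are neighbours.

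Epithelial and fibroblast markers were low in the endothelial cells. The summed immune, mural (mostly MCAM), erythroid (mostly GYPC) and thrombocyte markers reached or passed the level of other cells in some libraries. Of 5 epithelial markers in the files, CLDN4 and DSP had no UMI in any endothelial cell, and the summed level of the 5 was 0 to 56.9 CPM, against 822 to 1960 CPM in other cells. Of 10 fibroblast markers, 9 were detected, at a summed 138 and 322 CPM in endothelial cells of LG252 and 0 and 37.4 CPM in those of LG255, against 448 to 6128 CPM in other cells. In LG252 replicate 2, 3 of the 65 endothelial cells also met the rule for stromal cells given below. Of 8 immune markers, 7 were detected, at a summed 1922 and 332 CPM in LG252 and 46.3 and 0 CPM in LG255. The other cells had 1656 and 386 CPM of them in LG252 and 149 and 58.4 CPM in LG255, so only in LG252 replicate 1 did the endothelial cells hold as much as the others. Most of it there was CD74, with 161 UMIs, while PTPRC, the leukocyte surface marker, had 12 UMIs. Of 8 mural markers (pericytes and vascular smooth muscle), KCNJ8, ABCC9, TAGLN and MYH11 were at 0. The sum was 138, 164, 197 and 74.9 CPM in endothelial cells against 60.1, 121, 22.8 and 22.1 CPM in other cells. Of 85 mural UMIs in endothelial cells, most were MCAM, which endothelium also carries, while ACTA2, PDGFRB and CSPG4 had 8, 1 and 1. Of 7 thrombocyte markers, ITGA2B, GP9, GP1BA, F13A1 and NFE2 were at 0. The sum, from 10 UMIs, was 39.4, 15.8, 11.6 and 0 CPM in endothelial cells. In other cells it was 13.1, 16.3, 8.59 and 4.5 CPM. Thrombocytes also carry VWF in other vertebrates. Of 5 erythroid markers, SLC4A1, GATA1 and KLF1 were at 0, and the sum, mostly GYPC, was 39.4 and 79.0 CPM in endothelial cells of LG252 and 185 and 112 CPM in those of LG255, against 81.9 and 31.5 CPM in other cells of LG252 and 15.8 and 6.44 CPM in those of LG255. A doublet caller marked 3 endothelial cells, 1 in each library other than LG255 replicate 2. The part of such mixed cells in the results was not tested beyond the fits without called doublets.

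AQP1, a water channel of blood vessel endothelium and the marker of the label that the rule did not use, had 1676, 1662, 243 and 599 CPM in endothelial cells. It had 1.02, 8.93, 1.58 and 0.205 CPM in other cells. The classes did not overlap, and a UMI of AQP1 was found in 77.0% of endothelial cells against 0.678% of other cells (59.1% and 0.204% with every cell thinned to 1000 UMIs, which left out 12 endothelial cells and 565 other cells). The log2 fold change was 8.42 ± 0.51 (SE; adjusted p = 1.19e-58). AQP1 and the other vessel genes described next were high in the same cells as the 4 that chose them.

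**Figure D2:**
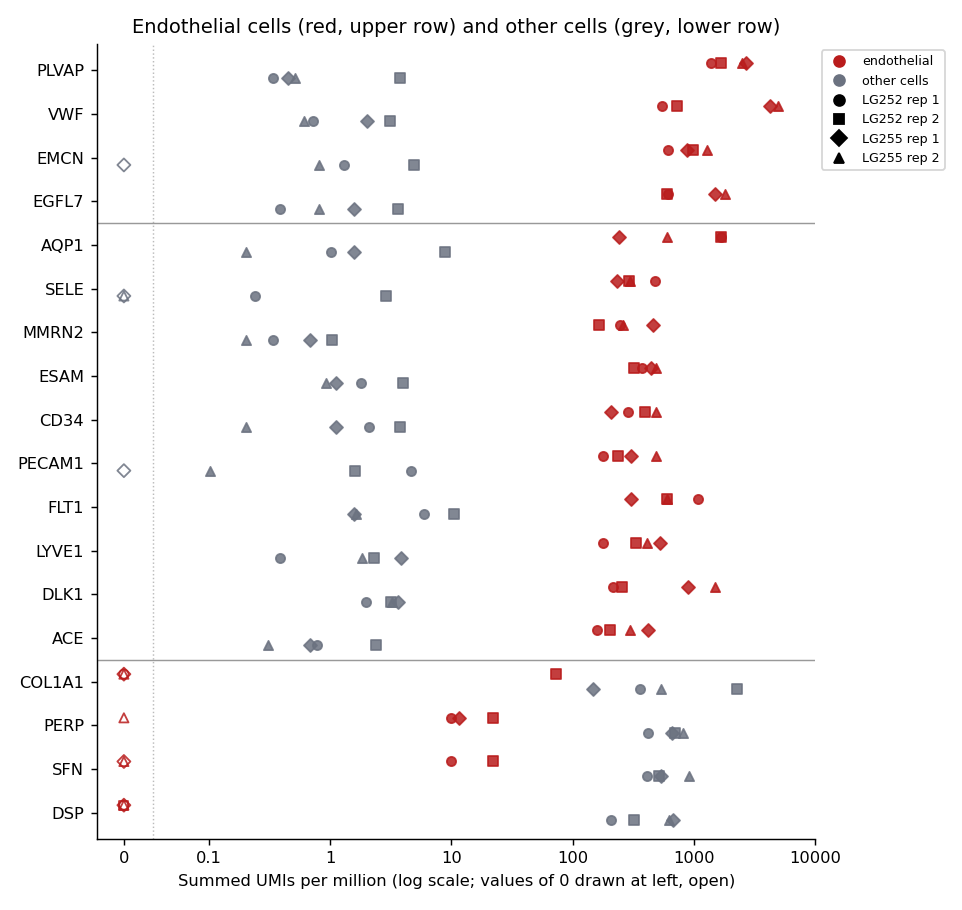
Summed UMIs as CPM in endothelial cells (red, upper row of each gene) and other cells (grey, lower row) for the 4 genes of the rule, 10 genes higher and 4 genes lower in endothelial cells, with 1 symbol per library on a log axis. No symbol of the endothelial cells overlaps those of the other cells for any gene drawn, and DSP is at 0 in the endothelial cells of all 4 libraries.

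Across 10435 genes with enough counts, 592 (5.67%) were higher and 1068 (10.2%) lower in endothelial cells than in other cells (edgeR quasi-likelihood test over libraries, Benjamini-Hochberg adjusted p below 0.05), and the median log2 fold change was -0.33. The count of genes that differed fell to 889 without LG252 replicate 2. In this test the spread between libraries was estimated from all genes together (infinite prior degrees of freedom). A gene's own spread had no weight, and the very small p-values printed here rest on that pooling. All tests compare cells chosen by 4 genes, so they describe which further genes go with these. The other cells are a mixture whose makeup differs between libraries. A gene could pass the minimum of counts through the endothelial sums alone. For a gene nearly absent from other cells, a positive value was then fixed in advance. The p-values of such genes, the counts of higher genes and the medians given for each list below are therefore description only.

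The genes with the smallest p among those that were higher in every library, beside AQP1, were SELE, MMRN2, HAPLN3, ESAM, CD34, LYVE1, DLK1, ACE, PECAM1, FLT1 and SHE, each with a log2 fold change of at least 6.58. Apart from PECAM1 and FLT1, these passed the minimum of counts only through the endothelial sums. Their order and p-values are therefore description only. SELE encodes E-selectin, which slows rolling leukocytes on the vessel wall, and had 473, 294, 231 and 300 CPM in endothelial cells against 0.242, 2.87, 0 and 0 CPM in other cells. MMRN2, an extracellular protein of the endothelium that binds VEGF-A, had 246, 164, 463 and 262 CPM against 0.339, 1.04, 0.678 and 0.205 CPM. HAPLN3, a hyaluronan link protein, had 88.7, 452, 902 and 187 CPM in endothelial cells, against 0.0484, 1.28, 1.58 and 0.205 CPM in other cells. For none of the 3 did a library of endothelial cells come near a library of other cells, although HAPLN3 ranged from 88.7 to 902 CPM among the endothelial libraries. DLK1, a Notch-family surface protein known from fetal tissues and progenitors, had 217, 256, 890 and 1498 CPM in endothelial cells, against 1.99, 3.19, 3.62 and 3.27 CPM in other cells (log2 fold change 6.77 ± 0.45, adjusted p = 6.99e-48). ACE, the angiotensin-converting enzyme of the vessel surface, had 158, 202, 416 and 300 CPM in endothelial cells, against 0.775, 2.39, 0.678 and 0.307 CPM in other cells. SHE, an adaptor protein, had 69.0, 107, 197 and 262 CPM in endothelial cells, against 0.0969, 0.159, 0.226 and 0.205 CPM in other cells.

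The named genes that were lower belong to epithelium and collagen-rich stroma. DSP, the desmosome plaque protein, COL17A1, a collagen that anchors basal epithelial cells, and TRIM29 had no UMI in any endothelial cell. With 3 counts as the floor over all endothelial cells, DSP was at least 64.6-fold lower, COL17A1 at least 41.6-fold lower and TRIM29 at least 33.4-fold lower than in other cells (adjusted p = 1.04e-27, 8.50e-21 and 1.06e-19). PERP, a desmosome-linked membrane protein, had 9.86, 22.1, 11.6 and 0 CPM in endothelial cells, against 415, 704, 664 and 815 CPM in other cells. SFN, an epithelial 14-3-3 protein, had 9.86, 22.1, 0 and 0 CPM in endothelial cells, against 412, 517, 535 and 902 CPM in other cells. COL1A1, the main fibrillar collagen chain, had 0, 72.7, 0 and 0 CPM in endothelial cells against 360, 2256, 147 and 539 CPM in other cells, its only endothelial UMIs being in LG252 replicate 2.

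Most junction genes were higher in endothelial cells, and an epithelial one was lower. Of 12 junction genes in the files, 9 passed the minimum of counts, 6 were higher and 1 lower, with a median log2 fold change of 2.73 against -0.33 for all genes. PECAM1, which joins neighbouring endothelial cells, had 177, 237, 301 and 487 CPM in endothelial cells against 4.65, 1.59, 0 and 0.102 CPM in other cells (log2 fold change 7.14 ± 0.48, adjusted p = 2.90e-46). ESAM, a tight junction adhesion molecule, had 375, 319, 439 and 487 CPM in endothelial cells against 1.79, 3.99, 1.13 and 0.920 CPM in other cells. Both were high in all 4 endothelial libraries, and ESAM passed the minimum of counts only through them. CLDN5, the claudin of endothelial tight junctions, had 2721, 2521, 69.4 and 112 CPM in endothelial cells against 54.2, 98.5, 19.4 and 1.94 CPM in other cells (log2 fold change 4.02 ± 0.47, adjusted p = 1.20e-15). Its level in endothelial cells split by animal, with LG252 far above LG255. JAM2, JAM3 and TJP1 were also higher, by 2.73 ± 0.45, 4.02 ± 0.55 and 1.73 ± 0.42 on the log2 scale. CGN, the cingulin of epithelial tight junctions, had 2 UMIs in endothelial cells, 0.175 times the level of other cells (counting interval 0.0212 to 0.634). Its adjusted p of 0.00717 became 0.0505 without LG252 replicate 1 and 0.0859 without LG252 replicate 2. OCLN had no endothelial UMI, but other cells had at most 2.26 CPM, so a difference was not detectable at this depth. CDH5, the VE-cadherin that defines endothelium in other vertebrates, had 6 and 26 UMIs in the endothelial cells of LG252. In those of LG255 it had 0 and 1. With no UMI in LG255 replicate 1 and few in other cells, it did not pass the minimum of counts and was not tested. It was found in 20.5% of endothelial cells against 0.250% of other cells (7.27% and 0.102% after thinning).

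All 8 receptors of the VEGF and TIE group passed the minimum of counts and were higher in endothelial cells, with a median log2 fold change of 6.64. KDR and FLT4, with at most 1.20 and 4.02 CPM in other cells, passed only through the endothelial sums. This count and median are therefore description only. FLT1, a VEGF receptor that also acts as a decoy, had 1075, 597, 301 and 599 CPM in endothelial cells, against 6.01, 10.4, 1.58 and 1.64 CPM in other cells (log2 fold change 6.58 ± 0.45). KDR, the main signalling receptor for VEGF-A, had 98.6, 142, 116 and 37.4 CPM in endothelial cells, against 0.872, 1.20, 0 and 0.205 CPM in other cells. FLT4, the receptor for VEGF-C and VEGF-D, had 177, 269, 393 and 225 CPM in endothelial cells, against 4.02, 3.19, 0.226 and 0.511 CPM in other cells. All 3 were separated from other cells in each library. TIE1 and TEK, the TIE receptor pair for the angiopoietins, were higher by 7.09 ± 0.59 and 7.43 ± 0.61, and PTPRB, the phosphatase that restrains TEK, by 6.69 ± 0.51 on the log2 scale. The co-receptor NRP1 was higher by 4.46 ± 0.46. NRP2 was higher by 2.22 ± 0.48 (adjusted p = 7.48e-05), but had no UMI in LG252 replicate 1, and without LG255 replicate 1 its adjusted p was 0.135.

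The ligands of these receptors were sparse in the endothelial cells. Of 7 ligand genes in the files, 2 passed the minimum of counts. VEGFC had 158, 136, 57.8 and 74.9 CPM in endothelial cells, against 7.75, 12.4, 9.95 and 8.18 CPM in other cells (log2 fold change 2.96 ± 0.46, adjusted p = 6.91e-09). VEGFA had 2 UMIs in all endothelial cells, 0.150 times the level of other cells (counting interval 0.0181 to 0.542), and its adjusted p of 0.00200 became 0.1005 without LG252 replicate 2. ANGPT1 and VEGFD had no UMI in the endothelial cells, and VEGFB, PGF and ANGPT2 had 1, 2 and 10.

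Transcription factors of the endothelial lineage followed the receptors. Of 19 in the files, 15 passed the minimum of counts, 12 were higher and none was lower, with a median log2 fold change of 2.97. ERG, an ETS factor that maintains endothelial identity, had 128, 94.8, 80.9 and 74.9 CPM in endothelial cells, against 3.78, 2.39, 0.226 and 0.511 CPM in other cells (log2 fold change 5.26 ± 0.56, adjusted p = 3.27e-19). ERG passed the minimum of counts only through the endothelial sums, so its p-value is description only. FLI1, its close relative, had 168, 212, 139 and 150 CPM in endothelial cells, against 17.5, 5.42, 1.13 and 0.409 CPM in other cells. Both were even over the endothelial libraries, whereas the other cells of LG252 replicate 1 held more FLI1 than those of the remaining libraries. BCL6B, a repressor found in vessels, was higher by 6.62 ± 0.61, LMO2, a bridging factor of blood and vessel development, by 4.36 ± 0.52, and KLF2, which responds to flow, by 3.73 ± 0.41 on the log2 scale. MEF2C and EPAS1 were higher by 2.97 ± 0.41 and 2.73 ± 0.40. SOX7, the SOX factor of vessels, was higher by 1.43 ± 0.41 (adjusted p = 0.00504), but its adjusted p was 0.308 without LG252 replicate 1 and 0.107 without LG252 replicate 2. Its relative SOX18 had no UMI in the endothelial cells, and SOX17 had 14. TAL1, which did not pass the minimum of counts, had 6 and 24 UMIs in the endothelial cells of LG252 and none in those of LG255. ETS2 and KLF4 were not called, at -0.84 ± 0.47 and -0.45 ± 0.41.

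Fewer Notch and BMP or TGF-beta genes were called. Of 10 Notch genes, 8 passed the minimum of counts and 2 were higher, DLL4 and JAG2 (1.12 ± 0.41, adjusted p = 0.0425), and the call for JAG2 was lost without either library of LG252 (adjusted p = 0.474 and 0.497). DLL4 had 246, 291, 46.3 and 37.4 CPM in endothelial cells, against 7.07, 8.21, 3.62 and 1.33 CPM in other cells (log2 fold change 4.35 ± 0.50). The receptor NOTCH1 had 145 to 158 CPM in endothelial cells against 46.4 to 125 CPM in other cells and was not called (0.51 ± 0.40, adjusted p = 0.467). Of 12 BMP and TGF-beta genes, 10 passed and 4 were higher. ENG, the co-receptor endoglin, had 503, 420, 254 and 374 CPM in endothelial cells, against 3.78, 7.34, 2.94 and 0.818 CPM in other cells (log2 fold change 6.24 ± 0.45, adjusted p = 3.36e-41). TGFBR2 and SMAD1, a receptor and a transducer, were higher by 1.41 ± 0.42 and 1.47 ± 0.40. The call for TGFBR2 was lost without LG252 replicate 2 or LG255 replicate 1 (adjusted p = 0.0965 and 0.120) and that for SMAD1 without LG252 replicate 1 (0.0885). With every cell thinned to 1000 UMIs, TGFBR2 was at 0.12 (adjusted p = 0.945). ID1, a target of BMP signalling, was higher by 1.47 ± 0.41 (adjusted p = 0.00361), a call that was lost without LG252 replicate 1 (adjusted p = 0.156) and without LG255 replicate 1 (adjusted p = 0.116).

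G protein coupled receptors were mostly higher. Of 11 genes in the files, 10 passed, 8 were higher and 1 was lower, with a median of 4.97. APLNR and GPR182, nearly absent from other cells, passed only through the endothelial sums, so this count and median are description only. APLNR, the apelin receptor of veins and sprouting vessels, had 69.0, 25.3, 80.9 and 37.4 CPM in endothelial cells from 23 UMIs, while a single UMI was seen among the 8409 other cells, in LG252 replicate 1. Its level was 2052 times that of other cells, with a counting interval of 333 to 84517. GPR182, a chemokine-scavenging receptor of vessels, also had 23 UMIs in endothelial cells, with 29.6, 15.8, 127 and 150 CPM, against 0.145, 0.159, 0.226 and 0.102 CPM in other cells (7.54 ± 0.70, adjusted p = 1.62e-24). For both, the few UMIs lay in all 4 libraries. CALCRL and RAMP2, which together form the adrenomedullin receptor, were higher by 5.60 ± 0.47 and 5.82 ± 0.69, S1PR1, the sphingosine-1-phosphate receptor, by 4.33 ± 0.46, and ADGRL4, an adhesion receptor, by 5.71 ± 0.45. LPAR6 was the gene that was lower, at -1.97 ± 0.51 (adjusted p = 0.00137, and 0.105 without LG252 replicate 2).

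Caveola and transport genes showed a mixed pattern. Of 10 in the files, 9 passed and 5 were higher, with a median of 1.23. CAVIN2, a coat protein of caveolae, had 848, 853, 1445 and 1086 CPM in endothelial cells, against 51.0, 99.0, 97.4 and 80.9 CPM in other cells (log2 fold change 3.04 ± 0.38, adjusted p = 4.03e-14). CAV1 had 88.7, 246, 1087 and 412 CPM and CAVIN1 118, 332, 1203 and 636 CPM in endothelial cells. The calls for CAV1 and CAVIN1 (1.45 ± 0.39 and 1.23 ± 0.37) were lost without LG255 replicate 1, with adjusted p = 0.156 and 0.249. SLC2A1, the glucose transporter, was higher by 2.53 ± 0.51 (adjusted p = 1.69e-05, and 0.154 without LG252 replicate 2), while CD36, a fatty acid transporter of capillaries, had no UMI in the endothelial cells and at most 0.319 CPM in other cells.

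Adhesion and surface genes were mostly higher. Of 12 in the files, 10 passed and 9 were higher, with a median of 6.51. ROBO4 and CD34, with at most 0.877 and 3.75 CPM in other cells, passed only through the endothelial sums. This count and median are therefore description only. CD34, a sialomucin of capillary and progenitor cells, had 286, 395, 208 and 487 CPM in endothelial cells, against 2.08, 3.75, 1.13 and 0.205 CPM in other cells. ROBO4, a guidance receptor of stable vessels, had 98.6, 237, 185 and 187 CPM in endothelial cells, against 0.339, 0.877, 0.452 and 0.307 CPM in other cells. PODXL, a sialomucin of the vessel lumen, had 532, 392, 266 and 187 CPM in endothelial cells, against 10.6, 3.91, 2.03 and 0.716 CPM in other cells. All 3 were above other cells in each library. CD93 was higher by 7.0 ± 0.61 and VCAM1, the leukocyte receptor of activated endothelium, by 3.14 ± 0.44. SELP, the P-selectin stored with VWF, was higher by 3.08 ± 0.59 (adjusted p = 3.70e-06) from 21 UMIs. ACKR1, the chemokine receptor of venules, had no UMI in the endothelial cells and 3 in the other cells.

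Genes of clotting and vessel tone came next. Of 12 in the files, 11 passed, 9 were higher and 1 was lower, with a median of 2.84. THBD and PROCR, the receptors that turn thrombin to the anticoagulant protein C pathway, were higher by 4.51 ± 0.46 and 4.99 ± 0.58. F8, clotting factor VIII, had 59.2, 79.0, 150 and 225 CPM in endothelial cells, against 0.824, 0.558, 1.13 and 1.02 CPM in other cells (log2 fold change 6.33 ± 0.56, adjusted p = 1.48e-27). F8 passed the minimum of counts only through the endothelial sums, so its p-value is description only. TFPI2, a protease inhibitor, was higher by 4.64 ± 0.51 on the log2 scale. ANXA2 was the gene that was lower (-1.27 ± 0.36, adjusted p = 0.00428, and 0.232 without LG252 replicate 1), although its level in endothelial cells was 1193 to 8128 CPM.

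Basement membrane genes went both ways. Of 13 in the files, 11 passed, 4 were higher and 2 lower, with a median of 1.22. LAMB2 was higher by 4.64 ± 0.54, HSPG2 (perlecan) by 3.78 ± 0.41, LAMA5 by 2.60 ± 0.44 and COL4A1 by 2.18 ± 0.48. LAMB1, a laminin chain of the same family as LAMB2, had no UMI in any endothelial cell and was at least 3.0-fold lower than in other cells (adjusted p = 0.000349, and 0.113 without LG252 replicate 2). COL18A1 had 1 UMI, 0.160 times the level of other cells (counting interval 0.00403 to 0.893), and its call (adjusted p = 0.0241) was lost without any 1 of LG252 replicate 1, LG252 replicate 2 or LG255 replicate 2 (adjusted p = 0.0546, 0.284 and 0.0519). Without LG255 replicate 1 the median of the tested basement membrane genes was -0.04. Of 15 genes for secreted signals, 11 passed, 3 were higher (KITLG, PDGFD and IGFBP7) and 1 was lower (TGFB1, a call lost without LG252 replicate 2, adjusted p = 0.307). KITLG, the ligand of KIT, had 128 and 94.8 CPM in the endothelial cells of LG252 and no UMI in those of LG255. PDGFB, which recruits pericytes, likewise had 15 and 41 UMIs in LG252 and none in LG255. The call for PDGFD (1.92 ± 0.50) was lost without either library of LG252, with adjusted p = 0.474 and 0.0910. Of 18 cell cycle genes, 17 passed, none was higher and MKI67 alone was lower, a call lost without LG252 replicate 1 (adjusted p = 0.101).

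**Figure D3:**
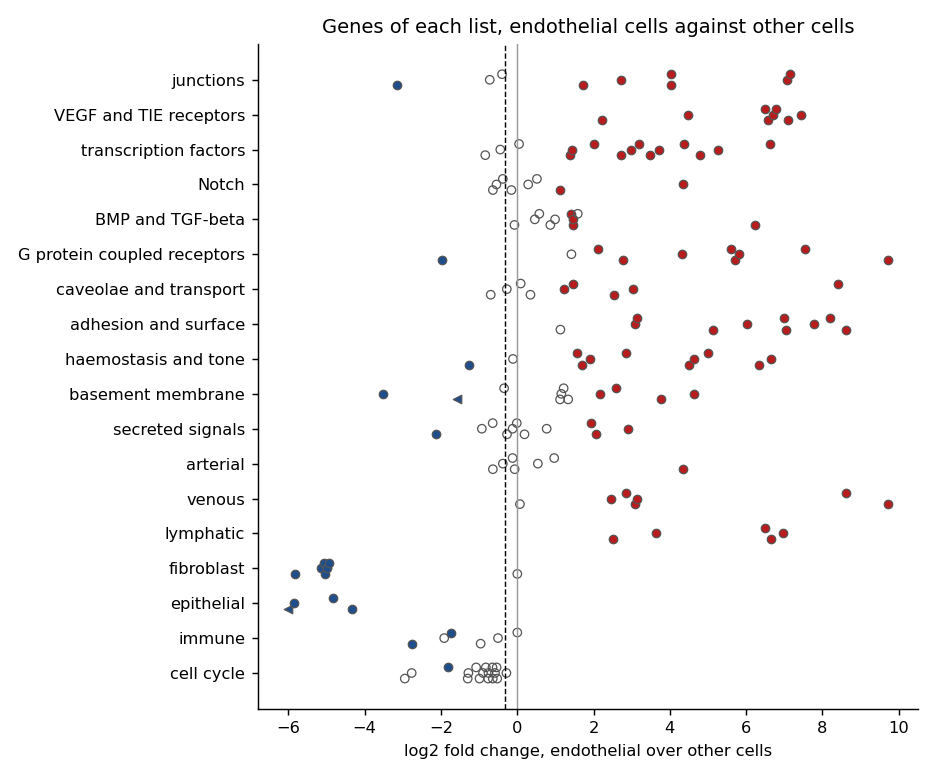
Log2 fold change of endothelial over other cells for each tested gene of 18 lists, filled where the adjusted p is below 0.05 (red higher, blue lower) and open where not, with triangles at the 3-count bound for genes without an endothelial UMI and a dashed line at the median of all genes, -0.33. The 8 receptors of the VEGF and TIE group all lie to the right of 2, and fibroblast and epithelial markers lie mostly to the left of -4.

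Set against stromal cells alone, endothelial cells were higher in 7 of 7 tested adhesion genes and 5 of 6 VEGF and TIE receptors. They were higher in 7 of 10 transcription factors and 4 of 4 lymphatic genes. Of 4 tested fibroblast markers that did not choose the stromal cells, 4 were lower. A gene could pass the minimum of counts through the endothelial or the stromal sums alone. In stromal cells the whole lymphatic list summed to 24.1 to 47.3 CPM and the whole adhesion list to 45.4 to 72.9 CPM. Genes this low in stroma were tested only if high in endothelial cells, so the minimum largely set these counts, which are description only. The same holds for the values of MMRN1, TMEM88, XIRP2 and TBX1 below. In the other direction it holds for those of FN1, COL5A1 and DPT. Of 7 basement membrane genes 2 were higher and 2 lower (median -0.76), and of 5 secreted signals none was higher and 2 were lower (median -1.39). Stromal cells were other cells with 5 or more summed UMIs and at least 3 detected genes among COL1A1, COL1A2, COL3A1, DCN and LUM, 416 and 819 cells in LG252 and 20 and 103 cells in LG255. Of 2889 genes tested, 285 (9.87%) were higher and 246 (8.52%) lower in endothelial cells. The count of genes that differed was 193 without LG252 replicate 2 and 990 without LG255 replicate 1, against 531 with all libraries. The genes named beyond those above were MMRN1, PODXL, TMEM88, TESPA1, XIRP2 and TBX1 on the higher side. MMRN1, a multimerin stored in platelets and in lymphatic endothelium, had 473, 660, 509 and 225 CPM in endothelial cells, against 0.926, 2.98, 0 and 0 CPM in stromal cells (8.07 ± 0.47, adjusted p = 1.68e-06). TBX1, a T-box factor of pharyngeal tissue and lymphatic vessels, had 730, 695, 567 and 412 CPM in endothelial cells, against 9.26, 5.46, 21.9 and 6.46 CPM in stromal cells (6.20 ± 0.43). It had 26.5 to 35.9 CPM in all other cells, of which 10.9% had a UMI, against 73.8% of endothelial cells. TMEM88, a membrane protein that acts on WNT signalling, had 98.6, 205, 740 and 786 CPM in endothelial cells, against 0.926, 3.48, 21.9 and 6.46 CPM in stromal cells. XIRP2, best known from striated muscle, had 286, 269, 57.8 and 74.9 CPM in endothelial cells, against 0.926, 1.24, 0 and 2.15 CPM in stromal cells. The genes lower than in stroma were COL6A3, APOC1, DPT, FN1, COL5A1 and EDNRA, with 1 to 16 UMIs each in all endothelial cells. FN1 had 0, 12.6, 0 and 0 CPM in endothelial cells against 602, 490, 437 and 288 CPM in stromal cells, and COL5A1 had 19.7, 41.1, 11.6 and 0 CPM against 651, 606, 561 and 594 CPM (-6.20 ± 0.57 and -4.64 ± 0.44). DPT had a single endothelial UMI, 0.00631 times the stromal level (counting interval 0.00016 to 0.0352). JAM2, higher against all other cells, was higher against stroma by 1.54 ± 0.35 (adjusted p = 0.00868).

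Genes of vessel types were found together in the same cells. At least 2 genes of the lymphatic list (PROX1, LYVE1, FLT4, PDPN, MMRN1, RELN, STAB2 and TBX1) were detected in 97 of 122 endothelial cells (79.5%, exact 95% interval 71.3 to 86.3%), against 0.987% of other cells. At least 2 of the venous list were detected in 65 (53.3%), against 4.14% of other cells, and at least 2 of the arterial list in 37 (30.3%), against 7.75%. With every cell thinned to 1000 UMIs the shares were 48.2% lymphatic, 16.4% venous and 5.45% arterial of 110 endothelial cells. The shares of other cells were not counted after thinning, so these cannot be set against the shares of other cells above. The arterial share reached 32.0 and 41.5% in the libraries of LG252, against 10.5 and 0% in those of LG255. After thinning, LG252 replicate 2 had 9.84% and the remaining 3 libraries, LG252 replicate 1 included, had 0%. No cell had 2 genes of the capillary list, of which 4 genes are in the files with 72 UMIs in all endothelial cells, so nothing can be said of capillary cells. Of the 65 cells with 2 venous genes, 60 also had 2 lymphatic genes, so the lists did not divide the cells into types, and no cell was given a vessel type.

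PROX1, the factor that sets lymphatic identity in mammals, had 1, 35, 2 and 0 UMIs in endothelial cells and was found in 12 of them, 9.84%, against 1.53% of other cells (1.82% and 0.459% after thinning). Its log2 fold change against other cells was 2.52 ± 0.64 (adjusted p = 0.00116), and 0.14 without LG252 replicate 2 (adjusted p = 0.972), so the call rests on that library. LYVE1, a hyaluronan receptor of lymphatics and some blood vessels, was found in 50.0% of endothelial cells against 0.392% of other cells, with 177, 332, 520 and 412 CPM against 0.388, 2.31, 3.84 and 1.84 CPM in other cells. MMRN1 was found in 76.2% of endothelial cells against 1.52% of other cells and FLT4 in 54.1% against 1.33% (46.4% against 0.395% and 27.3% against 0.408% after thinning). All 12 cells with PROX1 were among the 97 with 2 lymphatic genes. PROX1 is itself a gene of that list, so this overlap was largely fixed in advance. Reaching 2 genes also depends on depth, with 79.5% of cells before thinning and 48.2% after it. The 97 cells had 1838 CPM of PLVAP, 1558 of VWF and 1458 of AQP1, against 1751, 852 and 804 CPM in the remaining 25 cells, which were not tested because the choice used the same cells. STAB2, a hyaluronan receptor of sinusoids and lymph nodes, was found in 20.5% of endothelial cells against 0.107% of other cells. Of venous genes, NR2F2 was found in 50.0% of endothelial cells (7.04% of other cells) and EPHB4, the venous ephrin receptor, in 22.1% (3.73%). Of arterial genes, DLL4 was found in 41.8% (2.14% of other cells), while GJA5 and BMX had no UMI and CXCR4 was found in 13.1% against 22.6% of other cells, below that background.

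**Figure D4:**
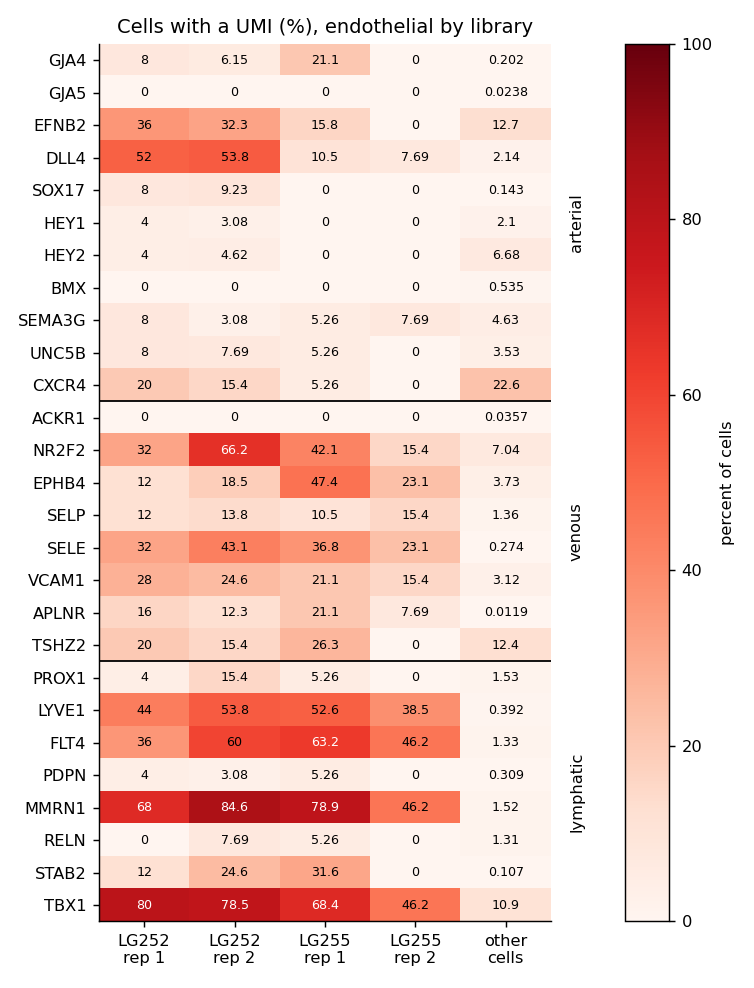
Percentage of endothelial cells with at least 1 UMI of each arterial, venous and lymphatic gene, by library, beside all other cells, with darker red for higher values. MMRN1 and TBX1 are the lymphatic genes found most often, in 46.2% or more of the endothelial cells of each library, while GJA5, BMX and ACKR1 are at 0 in each.

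Endothelial cells of the 2 animals, which were digested with different enzymes at different temperatures, differed in 289 of 1464 genes tested (19.7%): 215 (14.7%) were higher and 74 (5.05%) lower in LG252 than in LG255, with a median log2 fold change of 0.06. Without LG252 replicate 1, which leaves 1 library in that arm, edgeR called no gene, with 271 at an unadjusted p below 0.05, while the other libraries left out in turn gave 130 to 253 calls. The differences themselves stayed about as large without it for CLDN5 (5.03), JUND (5.8), PTGS2 (4.54) and CH25H (4.7), while that for HSPA2 fell to 4.09. DESeq2 called 133 with all libraries. Depth also differed: the endothelial cells of LG252 summed to 101434 and 316563 UMIs, and those of LG255 to 86486 and 26711 UMIs.

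The gene with the smallest p was CLDN5, with 276 and 798 UMIs in the endothelial cells of LG252 against 6 and 3 UMIs in those of LG255 (log2 fold change 5.10 ± 0.40, adjusted p = 0.000104). A UMI of CLDN5 was found in 68.0 and 75.4% of the endothelial cells of LG252 and in 21.1 and 15.4% of those of LG255. Other cells also had more CLDN5 in LG252, 54.2 and 98.5 CPM, than in LG255, 19.4 and 1.94 CPM. PTGS2, the inducible prostaglandin synthase, had 1006 and 1005 CPM in the endothelial cells of LG252 against 34.7 and 74.9 CPM in those of LG255 (4.54 ± 0.55). CH25H, which makes 25-hydroxycholesterol, had 1745 and 1241 CPM in LG252 against 69.4 and 0 CPM in LG255 (4.97 ± 0.63). AQP1 had 1676 and 1662 CPM in LG252 against 243 and 599 CPM in LG255 (2.27 ± 0.43, adjusted p = 0.00757). For each of these the 2 animals did not overlap, but they were named because they were called. The share of all genes without overlap was not counted. PTGS2 and CH25H, and DLL4 and SLC2A1 below, passed the minimum of counts through LG252 alone. A positive value was then fixed in advance, so their p-values are description only. The receptor for leukocytes VCAM1 was also higher in LG252, by 2.46 ± 0.55. DLL4 was higher in LG252 by 2.70 ± 0.56 and SLC2A1, with 1 UMI in LG255, had 31.4 times the LG255 level (counting interval 5.53 to 1251). With a further library left out some of these calls were lost while the differences stayed about as large. Without LG252 replicate 2, AQP1 was at 2.35 and DLL4 at 2.63 (adjusted p = 0.0598 for both) and SLC2A1 at 4.35 (0.0698). Without LG255 replicate 1, DLL4 was at 3.15 (adjusted p = 0.0774) and VCAM1 at 2.78 (0.0646).

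Immediate-early genes and some heat shock genes were also higher in LG252. Without LG252 replicate 1, which leaves 1 library in that arm, the median log2 fold change was 3.31 for 23 immediate-early genes tested. For 9 heat shock genes it was 3.52. A gene could pass the minimum of counts through LG252 alone, as IER3 and JUND did. For such genes a positive value was fixed in advance, which also bears on the counts of higher genes given next. Of 29 immediate-early genes in the files, 23 passed the minimum of counts in endothelial cells and 19 were higher in LG252, with none lower. Their median log2 fold change was 3.65, or 3.10 with the 5 genes absent from LG255 set at their bound. Of 27 such genes detected, 26 were above both LG255 libraries in both LG252 libraries. The share of all genes separated in this way was not counted, and the LG255 sums were shallower, so this count is description only. JUND had 1962 and 1440 CPM in LG252 against 23.1 and 37.4 CPM in LG255 (6.05 ± 0.56, adjusted p = 0.000187). IER3 had 641 and 572 CPM in LG252 and no UMI in LG255, at least 22.2-fold higher. Of 19 heat shock genes, 11 passed and 6 were higher, with a median of 3.33, or 2.20 with 2 genes set at their bound. Of 18 heat shock genes detected, 10 were above both LG255 libraries in both LG252 libraries and 8 overlapped, again without a share over all genes. HSPA2, of the HSP70 family, had 16040 and 5057 CPM in LG252 against 208 and 524 CPM in LG255 (5.19 ± 0.60, adjusted p = 0.000693). The other cells showed the same direction, with 10093 and 6678 CPM in LG252 against 468 and 520 CPM in LG255. The summed immediate-early list had 10792 and 10556 CPM in other cells of LG252, against 4278 and 4587 CPM in LG255. In stromal cells it had 14631 and 11790 CPM against 2617 and 1407 CPM. The summed heat shock list had 16887 and 12430 CPM in stromal cells of LG252, against 1910 and 2253 CPM in LG255. The direction was therefore not particular to endothelial cells. The genes called in these groups differed in the same direction as CLDN5, PTGS2 and CH25H, and their part in those differences was not tested.

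Among the genes lower in LG252 were mitochondrial ones. COX1, COX2, ATP6 and COX3, named in the files by locus tags, were lower by 2.66 ± 0.23, 2.32 ± 0.21, 2.83 ± 0.27 and 2.21 ± 0.24 on the log2 scale. Mitochondrial transcripts made up 1.53 and 1.53% of endothelial UMIs in LG252 and 3.75 and 4.01% in LG255, and 1.28 and 1.53% against 5.68 and 4.14% in other cells. Of 13 mitochondrial genes tested, 9 were lower and 1 was higher in LG252. Nuclear genes lower in LG252 included IGFBP6, an IGF-binding protein, with 128 and 171 CPM in LG252 against 1457 and 899 CPM in LG255 (-2.87 ± 0.44, adjusted p = 0.00368). DLK1 had 217 and 256 CPM in LG252 against 890 and 1498 CPM in LG255 (-2.15 ± 0.42, adjusted p = 0.00793), and TMEM88 had 98.6 and 205 CPM against 740 and 786 CPM (-2.13 ± 0.46). TEK had 39.4 and 75.8 CPM in LG252 against 289 and 187 CPM in LG255 (-1.90 ± 0.49). None of these 4 genes overlapped between the animals, but all 4 were named because they were called. The share of all genes without overlap was not counted. TEK passed the minimum of counts through LG255 alone, so its negative value was fixed in advance. Without LG252 replicate 2, DLK1 was at -2.19 (adjusted p = 0.0698) and TEK at -2.45 (0.0822), and without LG255 replicate 1 TEK was at -1.27 (0.492). CAV1 and CAVIN1 were lower by 2.05 ± 0.58 and 1.90 ± 0.53 (adjusted p = 0.0326 and 0.0300), and both calls were lost without LG255 replicate 1, at -0.87 and -1.11 (adjusted p = 0.483 and 0.312), and without LG252 replicate 2, at -2.95 and -2.79 (adjusted p = 0.0804 and 0.0654). PLVAP, VWF and EGFL7, the rule genes with higher levels in both libraries of LG255, are described above without a test.

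Several further genes described above were not called between the animals. PECAM1, ESAM, CD34, LYVE1, MMRN1, FLT1, KLF2 and SELE had log2 differences of -0.75 to 1.12 with adjusted p of 0.145 to 0.763, which does not show that they were equal. They were chosen after their values were seen. Of 4 tested lymphatic genes none was called, of 7 VEGF and TIE receptors TEK alone, and of 6 junction genes CLDN5 alone, counts too small to set apart from the 19.7% called among all genes. The animal difference in endothelial cells departed from that in other cells for 44 of 10435 genes, upward for 13 (0.125%) and downward for 31 (0.297%), but for none in the newer form of the edgeR test, with 663 at an unadjusted p below 0.05.

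**Figure D5:**
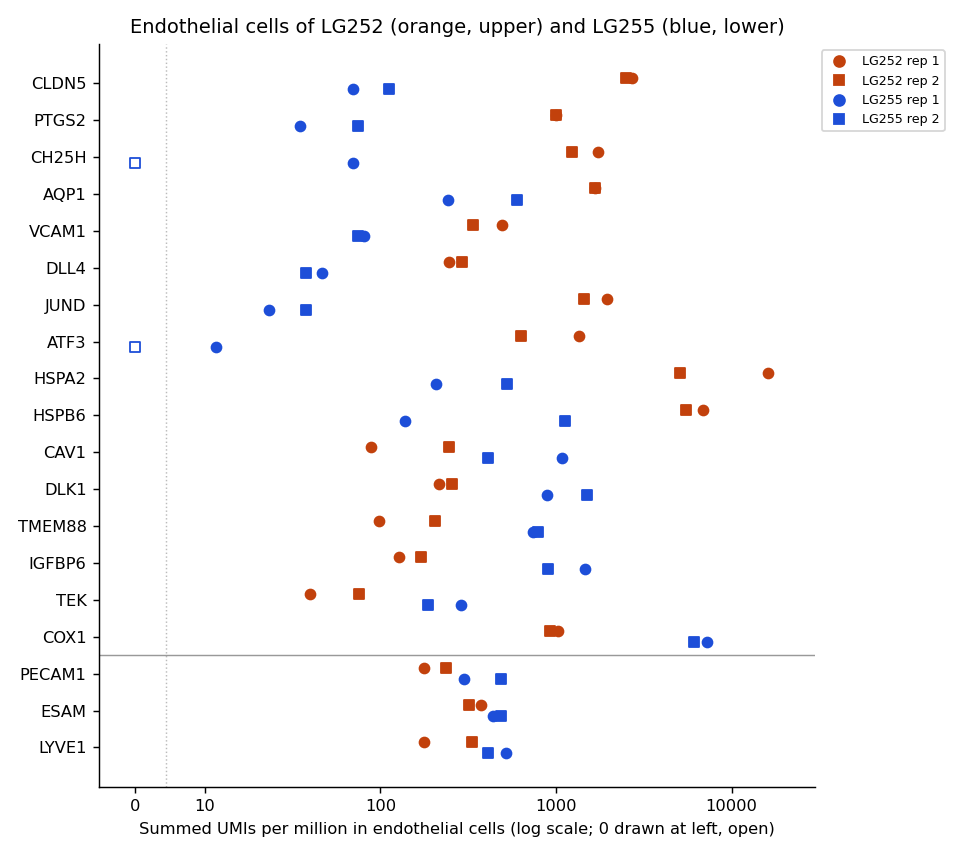
Summed UMIs as CPM in the endothelial cells of LG252 (orange, upper row of each gene) and LG255 (blue, lower row) on a log axis, circles for replicate 1 and squares for replicate 2, with 16 genes that differed above the line and 3 that were not called below it. CLDN5 stands at 2721 and 2521 in LG252 and at 69.4 and 112 in LG255, whereas ESAM lies between 319 and 487 in all 4 libraries.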

How the data were processed

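The deposited files hold raw UMI counts per gene and cell, from Cell Ranger 7.1.0 per the file headers and 2.1.0 per the submitters' processing notes. Which annotation release was used, whether intronic reads were counted and how cells were called are not given in the sources used here. Files were remade by the authors on the MPM_Emac_v1.0 assembly, per the series' design text. Members and gene lists were chosen with earlier results of these data known.

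Cells with at least 200 detected genes were kept (Python 3.11.15, scanpy 1.11.5), and barcodes were not filtered on doublet calls in the main results. UMIs were summed per library for endothelial, other and stromal cells. Sums were tested over all genes with edgeR 4.0.16 (R 4.3.3): TMM scaling, its filter on low counts, the quasi-likelihood test with library as a block for endothelial against other or stromal cells and none between animals, and Benjamini-Hochberg adjusted p below 0.05. DESeq2 1.42.0, other scalings and filters, leaving out each library and thinning were alternatives. Library sizes were 4535439 to 20754804 UMIs. Intervals and floors cover counting error only. The code recovered changed genes in counts simulated from a single mean profile with a fixed spread. Those counts lacked the differences between libraries and cell mixtures of these data, so they do not show how often calls here are right. Named genes had a UMI in at least 10% of the cells of the higher class, the same direction in every library and the smallest p: 12 higher and 6 lower against other cells, and 6 each way against stromal cells among those not yet named. Between animals they were the 5 each way with the smallest p. Further genes named come from the lists, and TMEM88, DLK1 and IGFBP6 between the animals were chosen after their values were seen.

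The replicate numbers were checked for pairing across the animals by a single correlation, which showed none. With 2 libraries per animal it cannot exclude pairing. A few genes of the lists are not reported here.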

Additional observations from a re-analysis of the deposited data

Results flagged for a closer look

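The LG252 over LG255 difference in endothelial cells departed from that in other cells for 44 genes by a test of the difference itself. The 4 described here had the smallest p among those with a gene symbol. In its main form this test pooled the spread between libraries over all genes. Of 10435 genes tested, 13 (0.125%) had a positive and 31 (0.297%) a negative difference (edgeR quasi-likelihood test, Benjamini-Hochberg adjusted p below 0.05), with a median of 0.54, and the newer form of the same edgeR test called none, with 663 at an unadjusted p below 0.05. IGFBP6 had 128 and 171 CPM in endothelial cells of LG252 and 1457 and 899 CPM in those of LG255, against 7.99 and 25.9 CPM in other cells of LG252 and 5.2 and 1.84 CPM in those of LG255. The difference was -4.66 ± 0.69 (adjusted p = 1.92e-07, and 0.122 in the newer form). IGF2, a fetal growth factor, had 98.6 and 215 CPM in endothelial cells of LG252 and 393 and 562 CPM in those of LG255, against 10.5 and 43.3 CPM in other cells of LG252 and 0.904 and 3.07 CPM in those of LG255. Its difference was -4.62 ± 0.74 (adjusted p = 2.11e-06, and 0.143 in the newer form). ATF3, a stress-induced transcription factor, had 1360 and 632 CPM in endothelial cells of LG252 and 11.6 and 0 CPM in those of LG255, against 228 and 221 CPM in other cells of LG252 and 134 and 127 CPM in those of LG255. Its difference was 6.36 ± 1.06 (adjusted p = 7.10e-06, and 0.122 in the newer form), from 1 endothelial UMI in LG255. EBF1, a transcription factor of B cells and stroma, had 335 and 218 CPM in endothelial cells of LG252 and 393 and 412 CPM in those of LG255, against 167 and 26.2 CPM in other cells of LG252 and 3.17 and 4.5 CPM in those of LG255. Its difference was -4.09 ± 0.71 (adjusted p = 1.79e-05, and 0.448 in the newer form). Relative to the median of all genes the 4 differences were -5.2, -5.15, 5.83 and -4.63. The other cells are a mixture whose makeup differs between the animals, and the part of that makeup was not tested.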

How the results depend on the processing

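The count of genes that differed between endothelial and other cells was 1660, and 941 without the library block, 537 after thinning to 1000 UMIs and 889 to 1546 with a library left out. Against stromal cells it was 531, and 1504 without a filter on low counts, 91 after thinning and 193 to 990 with a library left out. Between animals it was 289, and 133 by DESeq2, 64 after thinning, 241 with a replicate block (188 higher, 53 lower) and 0 to 253 with a library left out. No pairing of the libraries by replicate number was seen (correlation of same-numbered deviations -0.0715), which does not exclude it. For the difference of differences it was 44, and 0 in the newer edgeR form, which was chosen after seeing the data, 14 after thinning and 14 to 38 with a library left out. Fewer genes were tested after thinning, and otherwise the cause was not tested. The difference in share ranged from -1.26 to 1.11 percentage points with a library left out. Cells with 3 or more genes of a list were 12.3% arterial, 30.3% venous, 58.2% lymphatic and 8.20% tip (26.2% with 2), and after thinning with 2 genes 5.45, 16.4, 48.2 and 4.55%. Between animals ESAM became 0.0195 without the filter and CD34 -0.17 to 0.79 with a library left out (-0.17 without LG255 replicate 1), and KLF4 against other cells 0.14 after thinning, none of them called. Without the library block the calls for TJP1, NRP2, VEGFA, MEF2C, SOX7, CAV1, CAVIN1, COL4A1, PDGFD, PROX1, ID1, MKI67, JAG2, TGFBR2, SMAD1, LPAR6, SLC2A1, ANXA2, COL18A1 and TGFB1 against other cells were lost, and with the replicate block those for CAV1 and CAVIN1 between animals (adjusted p = 0.0665 and 0.0533). After thinning, the calls for TJP1, PDGFD, MKI67, JAG2, TGFBR2 and TGFB1 against other cells were lost. Of 90 genes followed there, 55 kept the same result, 6 lost it and 1 changed sign, and the remaining genes were not tested after thinning. By the DESeq2 test the calls for SOX7, PDGFD, PROX1, JAG2, COL18A1 and TGFB1 against other cells were lost. Those for HSPB6, DLL4 and TEK between animals were lost as well. The summed depth of the 13 endothelial cells of LG255 replicate 2 was 26711 UMIs, the lowest of the 4 libraries.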
